A study of Mus musculus with 12 samples.

Results

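The leukotriene pathway was followed through 7 genes, taken by symbol from the deposited table of read counts per gene: Pla2g4a, Alox5, Alox5ap, Lta4h, Ltc4s, Ltb4r1 and Cysltr1. All 7 were found among the 37542 table rows used, and all 7 passed the filter on low counts, as did 12261 genes in all. The cells were bone-marrow-derived macrophages (BMDMs), primary cells of C57BL/6N mice that were differentiated for 7 days in L929-conditioned medium. The first pair of groups was wild-type (WT) cells given PBS and WT cells given 100 µM ADP-heptose (ADP-Hep), each for 4 h. The other pair was Alpk1 knockout cells (Alpk1-/-, written KO) given PBS or 100 µM ADP-Hep for 4 h. Each of the 4 groups had 3 libraries. Neither the mice's age nor the deleted part of Alpk1 is stated. Nor is it stated whether libraries came from separate animals or cultures, so the spread behind each p-value may be technical.

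Leukotrienes are lipid mediators made from arachidonic acid by myeloid cells. Cytosolic phospholipase A2 (Pla2g4a) frees arachidonate from membranes, 5-lipoxygenase (Alox5) oxidises it with the help of its membrane partner FLAP (Alox5ap), and the product leukotriene A4 goes either to leukotriene B4 through Lta4h or to leukotriene C4 through Ltc4s. Leukotriene B4 attracts neutrophils through the receptor encoded by Ltb4r1, and the cysteinyl leukotrienes act through Cysltr1. ADP-Hep is a bacterial sugar nucleotide that is sensed by the kinase ALPK1.

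Total counts per library ran from 16110654 to 31333973, of which 12307826 to 25742912 lay in the rows used. Alpk1 itself was at 29.4 ± 3.19 CPM (the library-scaled count, with TMM scaling; mean ± SD, n = 3 libraries in every group) in WT cells with PBS and 53.8 ± 1.48 CPM with ADP-Hep. In KO cells it was at 21.3 ± 1.02 and 21.1 ± 1.7 CPM, so reads over the gene remained. Alpk1 rose with ADP-Hep in WT cells (0.89 ± 0.07 on the log2 scale, edgeR adjusted p = 3.1e-11) and was lower in KO than WT cells under PBS (-0.45 ± 0.08, adjusted p = 0.00037). With the extent of the deletion unknown, these values do not check the labels. All 10 macrophage markers listed were tested, and together they held 26125 to 29533 CPM in each library. The mast cell and basophil list of 8 genes summed to at most 1.64 CPM, with Fcer1a, Mcpt8, Cma1 and Tpsb2 at 0 counts in every library. The lymphocyte list of 6 genes summed to at most 0.484 CPM, the dendritic cell list of 6 to at most 2.1 CPM and the fibroblast list of 4 to at most 2.1 CPM. The 5 eosinophil markers summed to 2.8 to 3.4 CPM with PBS and 19.5 to 19.7 CPM with ADP-Hep in WT cells, and to 2.61 to 3.12 and 4.87 to 6.52 CPM in KO cells. Most of that in WT cells was the chemokine receptor gene Ccr3, at 18.7 CPM after ADP-Hep, while the granule gene Epx was at 0.0408 CPM. The 11 neutrophil markers summed to 206 to 227 CPM in WT cells with PBS, 202 to 224 with ADP-Hep, 242 to 271 in KO cells with PBS and 170 to 180 with ADP-Hep. Of the 8 tested genes of that list, Camp (1.05), S100a9 (0.42) and Ngp (0.29) rose and Csf3r (-0.58) fell in WT cells on the log2 scale. In KO cells 5 fell. Of all genes tested, 31.9% rose and 31.6% fell in WT cells, and 15.3% fell in KO cells. In bulk RNA, fewer cells of a type and less RNA per cell cannot be told apart.

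After ADP-Hep in WT cells, mRNA of the phospholipase that starts the pathway rose 1.93-fold and mRNA of the cysteinyl leukotriene receptor rose, whereas FLAP and leukotriene A4 hydrolase fell slightly. Pla2g4a went from 18.6 ± 0.77 to 35.9 ± 0.308 CPM and Cysltr1 from 30.6 ± 1.41 to 44.8 ± 4.76 CPM. Alox5ap went from 177 ± 5.1 to 156 ± 3.93 CPM and Lta4h from 61.0 ± 2.78 to 53.5 ± 1.14 CPM. Alox5, Ltc4s and Ltb4r1 did not pass the test. In KO cells 1 of the 7, Cysltr1, passed. A gene was called at a Benjamini-Hochberg adjusted p under 0.05 in edgeR's quasi-likelihood test over all 12261 genes, and changes are log2 fold changes ± SE.

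Of the 7 genes, 4 were called in the WT response, 2 higher and 2 lower, where 63.5% of all genes tested were called (31.9% higher and 31.6% lower). For 5 of the 7 the WT libraries of the treatments did not overlap, against 65.9% of all genes. The median log2 change of the 7 was -0.19 and that of all genes was -0.0058. Of all genes 3914 rose and 3871 fell in WT cells, and with scaling by library totals 2990 rose and 4927 fell, with a median of -0.12. In the KO response 1 of 7 was called, higher, against 28.9% of all genes (13.7% higher and 15.3% lower), and 2 of 7 did not overlap, against 42.1%. These shares are near or under the background, so the counts alone do not set the 7 genes apart, and what follows is about single genes.

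**Figure D1:**
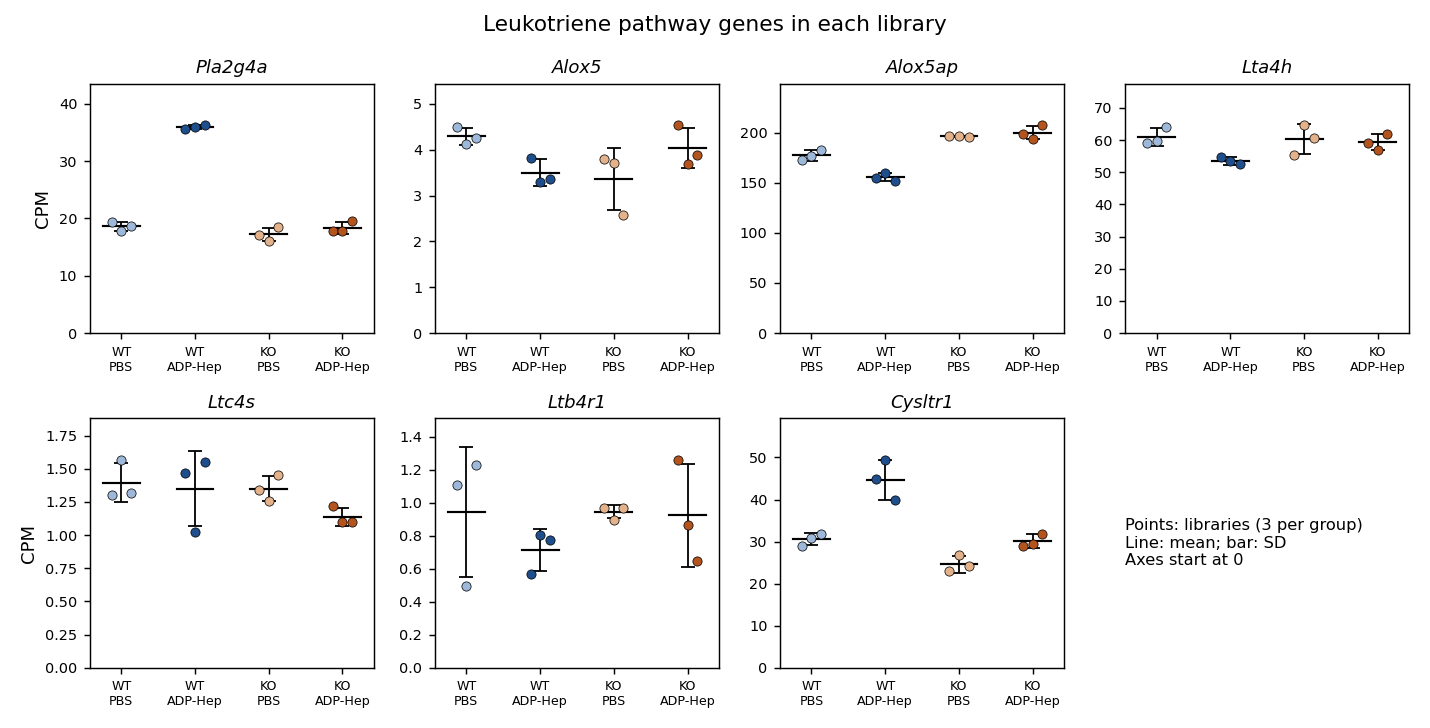
Level of each of the 7 genes in CPM (vertical axes, from 0) in each library of the 4 groups (points), with the mean (line) and SD (bar). Pla2g4a in WT cells with ADP-Hep (35.7 to 36.3 CPM) lies apart from every other library, while Ltc4s and Ltb4r1 stay under 2 CPM and vary within groups.

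Pla2g4a (ENSMUSG00000056220) lies on chromosome 1, 149829618 to 149961290, minus strand, in mm10. The 250 bases before its start at the gene's outer end are shown because this is the gene with the largest change among the 7. They come from RefSeq (GRCm38.p6), which held promoters of 5 of the 7 genes; Alox5ap and Cysltr1 had none there. Motif matches would be in capitals.
Pla2g4a chr1:149961291-149961540, minus strand: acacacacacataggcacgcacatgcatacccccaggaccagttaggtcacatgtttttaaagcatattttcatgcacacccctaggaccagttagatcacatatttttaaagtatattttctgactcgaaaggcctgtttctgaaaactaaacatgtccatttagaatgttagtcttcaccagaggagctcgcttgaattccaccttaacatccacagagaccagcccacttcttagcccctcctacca
The search covered both strands for an NF-kB motif (GGGA, any 2 bases, TTCC; in 1.21% of 32851 promoter windows of the same length), an AP-1 motif TGANTCA (6.75%), an interferon response motif (GAAA, any 2 bases, GAAA; 2.98%), the PU.1 core GAGGAA (23.3%), the GC box GGGCGG (32.7%) and TATAAA (12.4%). None of these letters was found in this window. RefSeq lists a second start of Pla2g4a 38851 bases inside the gene, whose window held TATAAA on the opposite strand, 200 to 195 bases before that start. Counts per gene do not separate transcripts from the 2 starts.

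In WT cells with PBS, Pla2g4a stood at 19.3, 17.8 and 18.6 CPM, and with ADP-Hep at 35.7, 35.9 and 36.3 CPM. In KO cells it stood at 17.1, 16.1 and 18.5 CPM with PBS and at 17.7, 17.8 and 19.6 CPM with ADP-Hep. The WT ADP-Hep libraries were all above the other 9, which overlapped one another. The WT response was 0.95 ± 0.07 (adjusted p = 4.4e-12), a 1.93-fold rise. In KO cells the change was 0.10 ± 0.08 (95% interval -0.05 to 0.26, adjusted p = 0.336). The responses differed by 0.84 ± 0.10 (WT minus KO, adjusted p = 1.8e-07). Under ADP-Hep the KO minus WT difference was -0.96 ± 0.07 (adjusted p = 2.7e-12), and under PBS it was -0.12 ± 0.08 (95% interval -0.28 to 0.04, adjusted p = 0.362).

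Alox5 (ENSMUSG00000025701; chromosome 6, 116410077 to 116461178, minus strand) encodes 5-lipoxygenase itself. Its promoter held matches to 2 of the motifs, as did that of Ltb4r1, which is not shown. The Alox5 matches are in capitals: the PU.1 core GAGGAA, 136 to 131 bases before the start, and the GC box GGGCGG, 35 to 30 bases before it.
Alox5 chr6:116461179-116461428, minus strand: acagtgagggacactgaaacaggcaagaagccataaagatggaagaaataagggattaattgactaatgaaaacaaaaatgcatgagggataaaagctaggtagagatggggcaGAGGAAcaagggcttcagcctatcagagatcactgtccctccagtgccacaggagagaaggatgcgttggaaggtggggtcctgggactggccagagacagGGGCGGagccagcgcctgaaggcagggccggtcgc
A match is a description of the letters and not a bound site. In the other promoters held, Lta4h had 1 PU.1 core on the opposite strand, Ltb4r1 had 1 PU.1 core and 1 GC box on the opposite strand, and Ltc4s had none of the 6 motifs.

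Alox5 was low in every library. It stood at 4.49, 4.13 and 4.25 CPM in WT cells with PBS and at 3.83, 3.30 and 3.37 CPM with ADP-Hep, and these groups did not overlap. KO cells had it at 3.80, 3.72 and 2.58 CPM with PBS and at 4.54, 3.69 and 3.88 CPM with ADP-Hep, and these overlapped. The WT change of -0.28 ± 0.15 was not called (95% interval -0.60 to 0.03, adjusted p = 0.11), nor was the KO change of 0.27 ± 0.16 (95% interval -0.07 to 0.60, adjusted p = 0.233). The difference between the responses passed the test at -0.55 ± 0.22 (adjusted p = 0.0436). That call was lost without WT PBS replicate 1 (-0.52), 2 (-0.57) or 3 (-0.56), WT ADP-Hep replicate 2 (-0.49) or 3 (-0.53), KO PBS replicate 3 (-0.41) or KO ADP-Hep replicate 1 (-0.44). It was also lost with DESeq2 (-0.54, adjusted p = 0.132). The KO change was 0.12 without KO PBS replicate 3 and 0.16 without KO ADP-Hep replicate 1. Neutrophils are rich in 5-lipoxygenase. Over the same KO libraries the summed neutrophil markers were at 242 to 271 CPM with PBS and at 170 to 180 with ADP-Hep. In WT cells that sum overlapped between treatments, with 3 of 8 tested markers higher and 1 lower, against 31.9% and 31.6% of all genes. Their part in the Alox5 values was not tested.

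FLAP, the partner that presents arachidonate to 5-lipoxygenase, was the most abundant of the 7 by far. Alox5ap (ENSMUSG00000060063; chromosome 5, 149264767 to 149288153, plus strand) stood at 172, 177 and 183 CPM in WT cells with PBS and at 155, 160 and 152 CPM with ADP-Hep. The KO libraries gave 196, 197 and 196 CPM with PBS and 199, 194 and 208 CPM with ADP-Hep. The lowest of these levels were the 3 WT ADP-Hep libraries and the highest were the 6 KO libraries, with no overlap between WT PBS, WT ADP-Hep and KO libraries. Alox5ap fell in WT cells by 0.19 ± 0.04 on the log2 scale (adjusted p = 0.00068), and its KO change was 0.03 ± 0.04 (95% interval -0.06 to 0.12, adjusted p = 0.665). The responses differed by -0.22 ± 0.06 (adjusted p = 0.0056). KO cells were higher under ADP-Hep by 0.36 ± 0.04 (adjusted p = 8.6e-08).

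Under PBS, KO cells held more Alox5ap by 0.15 ± 0.04 (adjusted p = 0.0318). This call was lost without WT PBS replicate 1 (0.13) or 2 (0.15) or KO PBS replicate 1 (0.15), 2 (0.14) or 3 (0.15), though the size changed little. An annotated antisense gene, Gm19719, shares 13.3% of the exon bases of Alox5ap. It held 14 to 39 counts in the WT libraries, against 1763 to 4298 for Alox5ap.

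The 2 enzymes that divide leukotriene A4 differed in level. Lta4h (ENSMUSG00000015889; chromosome 10, 93453411 to 93484875, plus strand), which makes leukotriene B4, stood at 59.0, 59.7 and 64.1 CPM in WT cells with PBS and at 54.7, 53.5 and 52.4 CPM with ADP-Hep. In KO cells it stood at 55.3, 64.6 and 60.8 CPM with PBS and at 59.0, 57.0 and 61.9 CPM with ADP-Hep. The WT ADP-Hep libraries were the 3 lowest of the 12. Lta4h fell in WT cells by 0.19 ± 0.06 on the log2 scale (adjusted p = 0.0068). Its KO change was -0.02 ± 0.06 (95% interval -0.14 to 0.10, adjusted p = 0.822), and the difference between the responses was not called (-0.17 ± 0.08, 95% interval -0.34 to 0.0041, adjusted p = 0.0995). That difference became a call without KO PBS replicate 2 (-0.22, adjusted p = 0.0317). Under ADP-Hep KO cells were higher by 0.15 ± 0.06 (adjusted p = 0.0289), a call lost without WT ADP-Hep replicate 2 (0.14) or 3 (0.14), KO ADP-Hep replicate 1 (0.16) or the KO ADP-Hep library with no number (0.12). It was also lost with DESeq2 (0.14, adjusted p = 0.0742).

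Ltc4s (ENSMUSG00000020377; chromosome 11, 50236461 to 50238616, minus strand), the leukotriene C4 synthase, had only 14 to 36 counts in a library. It stood at 1.30, 1.57 and 1.32 CPM in WT cells with PBS and at 1.47, 1.03 and 1.55 CPM with ADP-Hep. KO cells had it at 1.34, 1.26 and 1.45 CPM with PBS and at 1.22, 1.10 and 1.10 CPM with ADP-Hep. The WT groups overlapped, and the KO groups did not. Neither change was called: -0.07 ± 0.24 in WT cells (95% interval -0.57 to 0.44, adjusted p = 0.831) and -0.23 ± 0.26 in KO cells (95% interval -0.77 to 0.31, adjusted p = 0.557). An antisense gene, Gm26542, with 3 to 16 counts in a library, shares 26.4% of the exon bases of Ltc4s. The strand setting of the counting is not given, so reads of the pair cannot be told apart with certainty.

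Among the receptors, Cysltr1 (ENSMUSG00000052821; chromosome X, 106574346 to 106603679, minus strand) responded in both genotypes. It stood at 29.0, 30.9 and 31.8 CPM in WT cells with PBS and at 45.0, 49.4 and 39.9 CPM with ADP-Hep. The KO libraries gave 22.9, 26.9 and 24.1 CPM with PBS and 28.9, 29.5 and 31.9 CPM with ADP-Hep. The KO PBS libraries were the lowest 3 and the WT ADP-Hep libraries the highest 3, and the KO ADP-Hep libraries (28.9 to 31.9 CPM) overlapped the WT PBS libraries (29.0 to 31.8 CPM). Cysltr1 rose in WT cells (0.56 ± 0.07, 1.47-fold, adjusted p = 2.7e-07) and in KO cells (0.28 ± 0.08, 1.22-fold, adjusted p = 0.0092). The KO call was lost without KO PBS replicate 1 (0.23, adjusted p = 0.0655) or without the KO ADP-Hep library with no number (0.24, adjusted p = 0.0627).

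The WT response of Cysltr1 exceeded the KO response by 0.27 ± 0.11 (adjusted p = 0.0391). This call was lost with DESeq2 (0.28, adjusted p = 0.0591), with scaling by library totals (0.12, adjusted p = 0.378), and without WT PBS replicate 1 (0.24), WT ADP-Hep replicate 1 (0.28) or 2 (0.20), KO PBS replicate 2 (0.20) or 3 (0.29), or KO ADP-Hep replicate 1 (0.24) or 3 (0.26). KO cells held less Cysltr1 than WT cells after PBS, with a KO minus WT difference of -0.31 ± 0.08 (adjusted p = 0.0122). After ADP-Hep the difference was -0.59 ± 0.07 (adjusted p = 1.2e-07). The call under PBS was lost without WT PBS replicate 3 (-0.28) or KO PBS replicate 1 (-0.26) or 3 (-0.30).

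Ltb4r1 (ENSMUSG00000046908; chromosome 14, 55765962 to 55768494, plus strand), the high-affinity leukotriene B4 receptor, had 7 to 30 counts in a library. It stood at 1.11, 0.498 and 1.23 CPM in WT cells with PBS, at 0.571, 0.803 and 0.777 CPM with ADP-Hep, at 0.969, 0.899 and 0.967 CPM in KO cells with PBS and at 1.26, 0.864 and 0.647 CPM with ADP-Hep. The groups overlapped in each comparison between treatments or genotypes. The WT change was -0.49 ± 0.34 (95% interval -1.19 to 0.22, adjusted p = 0.223) and the KO change 0.0067 ± 0.34 (95% interval -0.70 to 0.71, adjusted p = 0.991). With 1 library left out the WT change ran from -0.74 to -0.21. The intervals are the widest of the 7 genes, so at these counts changes of this size were not detectable.

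**Figure D2:**
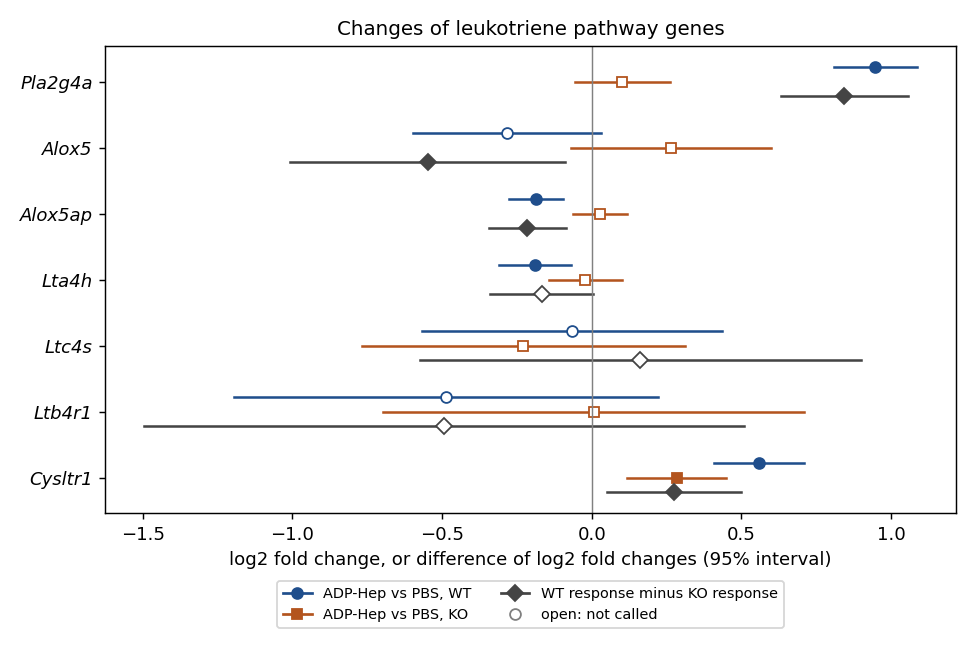
Log2 change with ADP-Hep in WT cells (circles) and KO cells (squares), and the difference of the changes, WT minus KO (diamonds), for the 7 genes, with 95% intervals; filled symbols were called. Pla2g4a has the largest WT change (0.95) and the intervals of Ltc4s and Ltb4r1 are the widest.

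The 7 transcripts were then compared in level, per length. Levels here are RPKM, that is CPM divided by the exon length in kilobases from the GENCODE M21 annotation. In WT cells with PBS the order was Alox5ap (125 ± 3.59), Lta4h (9.99 ± 0.455), Cysltr1 (5.95 ± 0.275), Pla2g4a (2.91 ± 0.121), Ltc4s (1.38 ± 0.147), Alox5 (1.04 ± 0.0451) and Ltb4r1 (0.678 ± 0.281), and no neighbours in that order overlapped. With ADP-Hep in WT cells, Cysltr1 (8.70 ± 0.925) and Lta4h (8.77 ± 0.187) overlapped and Pla2g4a reached 5.62 ± 0.0482. In KO cells with PBS, Alox5 and Ltb4r1 overlapped, and with ADP-Hep Ltc4s overlapped Alox5 and Alox5 overlapped Ltb4r1.

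FLAP mRNA thus stood far above the mRNA of the enzyme it serves. The ratio of Alox5ap to Alox5 in RPKM was 111 to 124 in WT libraries with PBS, 117 to 140 with ADP-Hep, 149 to 220 in KO libraries with PBS and 127 to 155 with ADP-Hep. The ratio of Lta4h to Ltc4s was 5.6 to 9.4 over all 12 libraries, with only 14 to 36 counts of Ltc4s in a library. With the longest annotated transcript as the length, Lta4h came to 18.9, Ltc4s to 1.95 and Pla2g4a to 5.39 RPKM in WT cells with PBS. The ratio of Lta4h to Ltc4s is then higher, so its size rests on the length used. With that length Pla2g4a lay above Cysltr1 in WT cells with ADP-Hep (10.4 against 8.70 RPKM), so the order of these neighbours rests on it too.

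**Figure D3:**
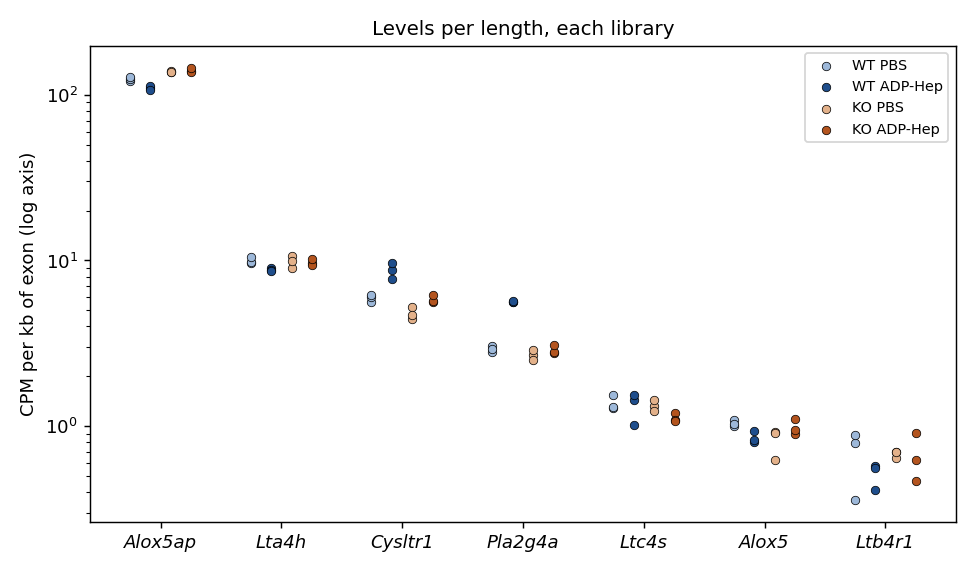
Level per length (CPM per kilobase of exon, log axis) of the 7 genes in each library, coloured by group and ordered by the level in WT cells with PBS. Alox5ap lies at 107 RPKM or above in every library, and Alox5, Ltc4s and Ltb4r1 lie at or under 1.55 RPKM.

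Between genotypes, 2 of 7 genes were called under PBS, Alox5ap higher and Cysltr1 lower in KO cells, against 11.4% of all genes (5.57% higher and 5.82% lower), and 3 of 7 did not overlap, against 27.7%. Neither call held without KO PBS replicate 1 (adjusted p = 0.0886 for both genes) or without KO PBS replicate 3 (0.0757 for Alox5ap and 0.0521 for Cysltr1). The third gene without overlap was Alox5, at -0.33 ± 0.16 (95% interval -0.67 to 0.00055, adjusted p = 0.201), and at -0.19 without KO PBS replicate 3. Under ADP-Hep 4 of 7 were called, Pla2g4a and Cysltr1 lower and Alox5ap and Lta4h higher in KO cells, against 64.8% of all genes (32.8% higher and 32.0% lower). The same 4 did not overlap, against 68.6% of all genes. The difference between the responses was called for 4 of 7, against 49.5% of all genes (24.6% upward and 24.9% downward): Pla2g4a and Cysltr1 upward in WT cells, Alox5 and Alox5ap downward. The WT and KO comparisons with PBS and ADP-Hep share libraries and are not independent of each other.

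The rest of the pathway was described through 44 further genes, of which 24 were tested. These lists were chosen with earlier results of these data known. Their shares and medians beside those of all genes are therefore descriptions and do not set the lists apart. In WT cells 11 of the 24 rose and 9 fell after ADP-Hep (63.5% of all genes were called), with a median absolute log2 change of 0.69 against 0.34 for all genes tested. In KO cells 3 rose and 3 fell, against 28.9% of all genes. The difference between the responses was called upward in WT cells for 10 and downward for 7, against 49.5%. The 20 genes not tested held at most 78 counts over all 12 libraries, and 4 of them held none.

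Genes that free arachidonate or return it to membranes were called in both directions in WT cells, 4 higher and 3 lower of 10 tested, which is near the share of all genes (31.9% higher and 31.6% lower). Acsl4, which couples arachidonate to coenzyme A, rose from 130 ± 13.1 to 253 ± 5.95 CPM (0.96 ± 0.06, adjusted p = 2.1e-11), and its KO change was -0.16 ± 0.07 (adjusted p = 0.083). Lpcat2, which re-esterifies lysophospholipids and makes platelet-activating factor, rose from 66.6 ± 3.55 to 143 ± 4.91 CPM (1.10 ± 0.05) and also rose in KO cells (0.39 ± 0.05, adjusted p = 3.8e-06). Pla2g7, which degrades platelet-activating factor, rose from 55.0 ± 2.88 to 91.1 ± 0.571 CPM (0.72 ± 0.06). It was already at 87.3 ± 5.04 CPM in KO cells with PBS, 0.66 ± 0.06 above WT cells (adjusted p = 1.2e-08). Mboat7, which places arachidonate into phosphatidylinositol, rose slightly in WT cells (0.18 ± 0.05, adjusted p = 0.0061) and fell slightly in KO cells (-0.15 ± 0.06, adjusted p = 0.0437). With scaling by library totals the WT change of Mboat7 was 0.06 and not called (adjusted p = 0.294).

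The lysosomal phospholipase Pla2g15 fell from 174 ± 3.46 to 51.7 ± 3.04 CPM in WT cells (-1.76 ± 0.05, adjusted p = 4.2e-20) and fell less in KO cells (-0.31 ± 0.05), a difference of -1.45 ± 0.07 (adjusted p = 3.9e-15). Pla2g6, a calcium-independent phospholipase, fell in both genotypes (-0.34 ± 0.11 and -0.40 ± 0.11), and the difference of 0.06 ± 0.15 was not called (adjusted p = 0.755). The other lipoxygenases, Alox12, Alox15 and 4 more, had too few counts to be tested. Alox12, the most abundant of them, stood at 0.124 ± 0.0497 CPM in WT cells with PBS and 0.384 ± 0.126 with ADP-Hep.

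Partners of 5-lipoxygenase went opposite ways in WT cells. Mapkapk2, a kinase that phosphorylates 5-lipoxygenase among other targets, rose from 228 ± 5.83 to 670 ± 24.9 CPM (1.55 ± 0.04, adjusted p = 2.9e-20), and its KO change was -0.10 ± 0.04 (adjusted p = 0.0834). Cotl1, a coactosin-like protein that binds 5-lipoxygenase, fell from 1034 ± 73.0 to 808 ± 67.6 CPM (-0.36 ± 0.06, adjusted p = 2.5e-05). FLAP and leukotriene C4 synthase belong to the MAPEG family. The 3 further enzymes listed here from that family, Mgst1, Mgst2 and Mgst3, all fell in WT cells, where 31.6% of all genes fell. Mgst1 fell by 0.40 ± 0.06, Mgst2, which can also make leukotriene C4, by 0.67 ± 0.14, and Mgst3 by 0.61 ± 0.07 on the log2 scale. In KO cells their changes were -0.05, 0.12 and -0.09 (edgeR, unadjusted p = 0.475, 0.364 and 0.219), and for all 3 the difference between the responses was called downward, against 24.9% of all genes.

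Downstream of synthesis, Abcc1, the transporter that exports leukotriene C4, rose from 165 ± 9.91 to 466 ± 22.2 CPM in WT cells (1.5 ± 0.05, adjusted p = 1.1e-18), and the KO change was -0.12 ± 0.05 (adjusted p = 0.0773). Dpep2, a dipeptidase that converts leukotriene D4 to E4, rose from 3.29 ± 0.33 to 5.30 ± 0.782 CPM (0.72 ± 0.16). Ggt5, of the same list, stayed under the 5 CPM used for naming genes. It fell in WT cells (-0.61 ± 0.22, adjusted p = 0.0173), with a difference between the responses of -0.82 ± 0.29 (adjusted p = 0.023). Of the genes that break down leukotriene B4, the hydroxylase Cyp4f18 fell from 14.1 ± 0.157 to 8.64 ± 0.465 CPM (-0.72 ± 0.09, adjusted p = 8.9e-08) and Ptgr1 rose by 0.18 ± 0.05 (adjusted p = 0.005). With scaling by library totals the change of Ptgr1 was 0.06 and not called (adjusted p = 0.278). Cysltr2, the second cysteinyl leukotriene receptor and the most abundant of the other leukotriene receptors, rose in KO cells by 1.04 ± 0.30 (adjusted p = 0.0095). The WT change of Cysltr2 was 0.17 ± 0.29 (adjusted p = 0.628), and the difference of -0.87 ± 0.42 was not called (adjusted p = 0.0911). Under ADP-Hep it was higher in KO than WT cells by 0.62 ± 0.26 (adjusted p = 0.0415). Its SE in KO cells lay between those of Ltc4s (0.26) and Ltb4r1 (0.34), which had few counts. The KO call of Cysltr2 was not followed with 1 library left out. Ltb4r2 was among the genes with too few counts to be tested.

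Receptors for lipoxins and resolvins, lipid mediators that counter leukotrienes, were listed last. All 3 tested members of that list rose in WT cells, where 31.9% of all genes rose; with so few genes this is a description of the 3. Fpr2, a formyl peptide receptor that also binds lipoxin A4, went from 5.61 ± 0.264 to 104 ± 6.25 CPM (4.22 ± 0.08, adjusted p = 4.2e-24). Gpr18, a proposed receptor for resolvin D2, went from 1.24 ± 0.234 to 13.3 ± 0.682 CPM (3.40 ± 0.18), and Cmklr1, the chemerin receptor, from 31.1 ± 3.81 to 66.6 ± 9.78 CPM (1.10 ± 0.11). In KO cells Fpr2 also rose, by 0.47 ± 0.11 (adjusted p = 0.0029), while Gpr18 (-0.02 ± 0.25) and Cmklr1 (0.12 ± 0.12) were not called. The difference between the responses was called upward for all 3, against 24.6% of all genes.

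**Figure D4:**
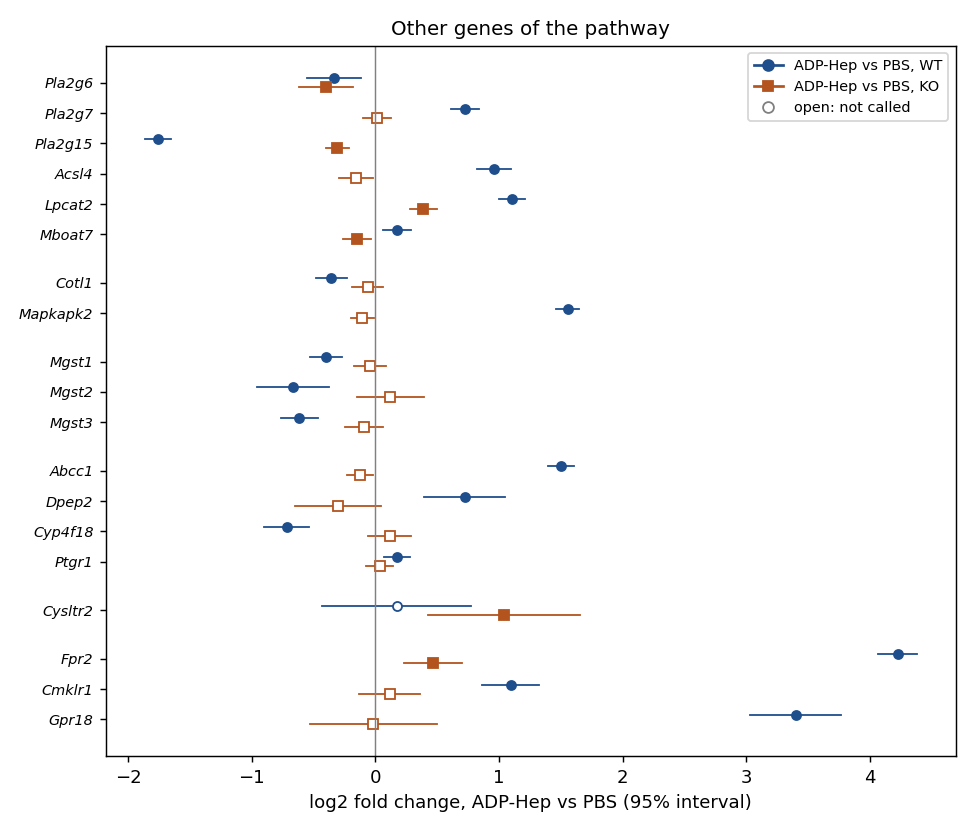
Log2 change with ADP-Hep in WT cells (circles) and KO cells (squares) for the 19 tested genes named from the wider pathway, with 95% intervals. Filled symbols were called, and Ggt5 is not shown. Fpr2 (4.22) and Gpr18 (3.40) have the largest WT changes upward and Pla2g15 (-1.76) the largest downward, while the KO changes run from -0.40 to 1.04.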

How the data were processed

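RNA of 12 BMDM libraries, 3 in each of 4 groups, was prepared with a stranded mRNA kit, per the labels' protocols. The authors deposited 1 table of raw read counts per gene. The submitters' processing notes name FastQC, Trim Galore, STAR, featureCounts, RSEM, DESeq2 and the build mm10, with hg38 also listed. Which tool counted the reads, with what annotation and strand setting, is not given in the sources used here.

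In the lower part of the table the KO columns are shifted by 1 row against the WT columns. Log counts of WT and KO libraries correlated at 0.996 in the upper rows and 0.0420 below the break, or 0.979 with the KO columns moved up by 1 row. Only the first 37542 of 56749 rows were used, holding 71.3 to 85.2% of the counts of a library. The 7 genes lie within the first 16945. The row without an identifier held 0 counts. For KO ADP-Hep, 1 column matched the group but no sample label, so it has no replicate number; values of that group are given as replicate 1, replicate 3 and the library with no number. Replicates differed by more than sampling noise (chi-square per degree of freedom 1.93 to 10.1).

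Genes were filtered with filterByExpr, scaled by TMM and fitted with 1 mean per group over all 12 libraries in edgeR 4.0.16 (R 4.3.3), with the robust quasi-likelihood test and Benjamini-Hochberg adjustment over 12261 genes. The SE is the log2 change divided by the root of the F value, and 95% intervals use it. Interactions are the WT response minus the KO response. Exon lengths come from GENCODE M21. The test was also run on simulated counts with the same spread for every gene and few changed genes. That setting differs from these data, so the run gives no support for the calls here. Alternatives used other scalings and filters, DESeq2 1.42.0, limma 3.58.1, a replicate block, other row sets and 1 library left out. Of the wider pathway, each list gave the genes called in the WT response or interaction with a mean of at least 5 CPM in the higher group, or its most abundant gene where none was called. The 7 genes and all lists were chosen with earlier results of these data known.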

Additional observations from a re-analysis of the deposited data

Results flagged for a closer look

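Among Alpk1, the 7 leukotriene genes and wider-pathway genes of at least 5 CPM, 21 responded differently to ADP-Hep in WT and KO cells. These calls come from the test of the difference itself (edgeR's quasi-likelihood test, Benjamini-Hochberg adjustment). All values here are the WT response minus the KO response on the log2 scale. Of the 7 leukotriene genes these were Pla2g4a (0.84), Alox5 (-0.55), Alox5ap (-0.22) and Cysltr1 (0.27). The calls for Alox5 and Cysltr1 did not hold under several alternatives. For Alpk1, the gene targeted in the knockout, the value was 0.89.

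Among genes of arachidonate release and return it was 0.71 for Pla2g7, -1.45 for Pla2g15, 1.12 for Acsl4, 0.72 for Lpcat2 and 0.33 for Mboat7. The partners of 5-lipoxygenase gave -0.30 for Cotl1 and 1.66 for Mapkapk2. The MAPEG enzymes listed gave -0.35 for Mgst1, -0.79 for Mgst2 and -0.52 for Mgst3. Export and processing genes gave 1.62 for Abcc1, 1.03 for Dpep2 and -0.83 for Cyp4f18. The lipoxin and resolvin receptors gave 3.76 for Fpr2, 0.98 for Cmklr1 and 3.42 for Gpr18. Single outlying libraries were not tested for, because each group had 3.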

How the results depend on the processing

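The WT response of Pla2g4a, Alox5ap, Lta4h and Cysltr1 was called in the same direction under every alternative run. For Lta4h the highest adjusted p over the tests of these alternatives was 0.0498, just under the threshold. For Pla2g4a, Alox5ap and Cysltr1 it was at most 0.00454. Of the 7 genes, 1 was called between genotypes under PBS with no filter beyond 1 count, with only the groups compared, and with the KO columns moved back into line, against 2. With DESeq2 2 of 7 interactions were called, against 4. With all rows as deposited 3150 of all genes were called between genotypes under PBS, against 1397. With scaling by library totals, Alox5 passed in the WT response (-0.39, adjusted p = 0.0318) and under ADP-Hep between genotypes (0.37, adjusted p = 0.04), as did the Lta4h interaction (-0.32, adjusted p = 0.00259), while the Mboat7 interaction was lost (0.17, adjusted p = 0.0623). With that scaling the median log2 change of all genes was -0.12 in the WT response, 0.17 between genotypes under ADP-Hep and -0.16 for the interaction. With TMM scaling these medians were -0.0058, 0.014 and -0.0099. The cause was not tested.

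Signs turned only for values that were not called. Alpk1 in KO cells gave -0.0029 with DESeq2 size factors, -0.0072 with at least 1 CPM in 3 libraries and -0.0063 with DESeq2. Library totals gave 0.023 for Lta4h in KO cells and interactions of -0.091 for Pla2g6 and -0.014 for Ptgr1. Ltb4r1 in KO cells gave -0.015 with DESeq2 and -0.058 with limma-voom, and 0.023 between genotypes under PBS with limma-voom.

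Whether replicate numbers pair the samples was not settled. Deviations of 10 same-numbered pairs correlated at -0.148 to 0.183, with 3 over 0.1. Between KO and WT libraries the values ran from 0.053 to 0.183, and between treatments from -0.148 to 0.096. Pairs with different numbers were not compared, so there is no reference for these values. With the replicate block, which leaves out the KO ADP-Hep library with no number, 1 of 7 genes was called between genotypes under PBS, 3 of the wider pathway in the KO response (against 6), and Alpk1 in KO cells was -0.031. The block also ended the calls of the Cysltr1 interaction (0.26, adjusted p = 0.0717), of Alox5ap under PBS (0.15, adjusted p = 0.0572) and of Lta4h under ADP-Hep (0.13, adjusted p = 0.129).

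With 1 library left out, the number of the 7 genes called ran from 0 to 1 in the KO response, from 2 to 4 for the interaction and from 0 to 2 between genotypes under PBS, and stayed at 4 in the WT response. Between genotypes under PBS, 829 (without KO PBS replicate 1) to 1565 of all genes and 2 (without the same library) to 6 of the wider pathway were called. Uncalled values spanned 0: in the KO response Alpk1 -0.044 to 0.052, Lta4h -0.079 to 0.037 and Ltb4r1 -0.36 to 0.23; in the WT response Ltc4s -0.17 to 0.12; in the interaction Pla2g6 -0.043 to 0.14; and between genotypes under PBS Lta4h -0.078 to 0.038, Ltc4s -0.093 to 0.039 and Ltb4r1 -0.32 to 0.21. Depth limits Ltc4s and Ltb4r1 most, at 7 to 36 counts in a library.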

Other observations

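For each of the 7 genes, the genes most alike in pattern were ranked by Pearson's r of log2 CPM over all 12 libraries, among 9470 genes. The libraries share depth and scaling, and the WT ADP-Hep libraries stand apart for many genes, so r is given as a description. Pla2g4a was most like Mmd (0.995), Gpr85 (0.995) and Ube2j1 (0.994). Cysltr1 was most like Pafah1b1 (0.988), Ammecr1 (0.985) and Kdelr2 (0.984). Alox5ap was most like Itm2b (0.986), Mmp27 (0.981) and Ranbp9 (0.981), and Lta4h was most like Usp8 (0.940), Sh3kbp1 (0.931) and Ubxn2b (0.923). For the 3 genes with few counts the highest values were 0.947 for Alox5 (Haus7), 0.770 for Ltc4s (Pcid2) and 0.816 for Ltb4r1 (Mcm3ap).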
